A study of Mus musculus with 14 samples.

Results

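Glucose enters fat cells through transporters, is trapped by hexokinase, and is then burned by glycolysis, stored as glycogen or sent through the pentose phosphate pathway, which makes NADPH and ribose. Most steps have isoforms whose balance is known to differ between muscle, liver, brain and fat. In brown fat, glucose feeds heat production and fat synthesis, and much of it leaves the cell again as lactate. Described here are 41 genes of these routes, taken from a fixed list of names with no use of measured values, out of 24421 genes in the deposited tables. They comprise 3 glucose transporters, 22 genes of glycolysis, 4 of lactate, 8 of glycogen and 4 of the pentose phosphate pathway.

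RNA was sequenced from 14 mouse samples. Brown adipose tissue (BAT) and perigonadal white adipose tissue (WAT), 4 samples each, came from C57BL/6N mice aged 22 weeks that had been on a diet with 60% of calories from fat for 14 weeks and were kept at ambient temperature. Every tissue sample therefore came from a fat-fed animal, and no chow-fed group was analysed here. A BAT cell line, differentiated with insulin, T3, dexamethasone and IBMX, received from day 7 either DMSO (control, 3 samples) or 100 µM blebbistatin (BLEB, 3 samples), an inhibitor of myosin II motors, for 24 h. The protocol adds rosiglitazone for beige cells. Nothing in the labels tells whether replicates were separate animals or cultures; p-values therefore cover only the spread among the libraries at hand, possibly a technical one, and for the cells they concern a single line.

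Reads in genes numbered 6859404 to 16091372 per WAT library, 1014959 to 2335058 per BAT library and 10685378 to 14176846 per cell library. Levels are given in CPM (counts divided by the library's reads in genes and its TMM factor), and between genes in RPKM, which also divides by transcript length. A gene was called when limma's Benjamini-Hochberg adjusted p, taken over all tested genes, was under 0.05. Brown fat markers separated the tissues: 10 of them summed to 20050 to 29895 CPM per BAT library against 28.8 to 43.6 CPM per WAT library. In the cell line, 8 general fat cell markers summed to 6789 to 11187 CPM, but the brown fat markers to only 185 to 385 CPM. Ucp1, which uncouples respiration to make heat, lay at 26.1 to 123 CPM in control and 8.15 to 14.3 CPM in BLEB cells. It was not called (limma adjusted p = 0.091), nor was any other of the 10 brown fat markers. These did not move together: Elovl3 lay at 5.93 to 18.9 CPM in control and 29.9 to 35.0 CPM in BLEB cells. Their median log2 difference, BLEB over control, was -0.16.

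As a share of reads in genes, BAT held more transcript than WAT for most of the glucose genes. Of the 41 members, all of which entered the test, 28 were higher in BAT, 6 were lower and 7 were not called. Over all 12754 tested genes 62.3% were called, 30.7% higher and 31.6% lower in BAT, and the median log2 fold change was -0.05 against 1.52 for the members. Pgam2 passed the filter on low counts only through BAT, and Eno2, Aldoc and Slc16a3 only through WAT. Reads in genes made up 71.1% to 83.0% of inferred mapped reads in WAT and 19.1% to 42.3% in BAT, a difference that ran fully with the depots and whose part in these results was not tested. The balance of calls rests on scaling by gene reads: on the deposited RPKM, which shifts the median gene by -1.51, 13 members were higher and 12 lower, and with RPKM centred on library medians 28 were higher and 4 lower. Higher calls made up 49.3% of all calls as scaled here, 8.11% on RPKM and 38.9% without TMM.

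**Figure D1:**
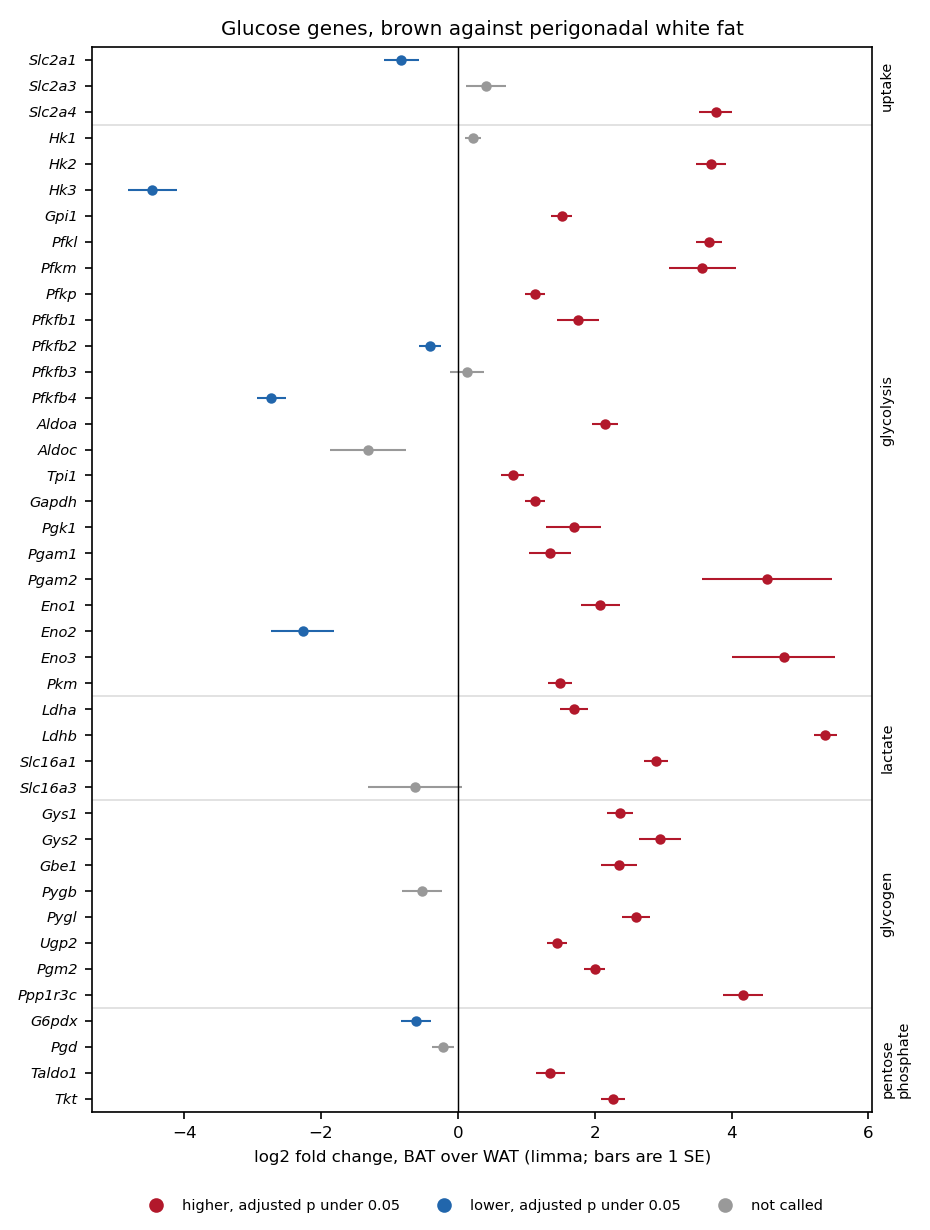
Log2 fold change of each glucose gene, BAT over WAT, with 1 SE (limma, n = 4 libraries a group), grouped by role. Red points were called higher, blue lower and grey not called; Ldhb lies farthest right at 5.37 and Hk3 farthest left at -4.46.

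The insulin-responsive transporter Slc2a4 (GLUT4, on chromosome 11, 69755788 to 69761692, minus strand, mm9) was the transporter that rose. Its level was 33.6, 43.1, 42.5 and 26.4 CPM in the WAT libraries and 308, 468, 614 and 668 CPM in the BAT libraries. Every BAT library stood above every WAT library, and the log2 fold change was 3.77 ± 0.24 (SE, n = 4 a group, limma adjusted p = 6.5e-08). Slc2a1 (GLUT1), the transporter of basal uptake, moved the other way. It measured 40.7, 31.6, 35.9 and 48.7 CPM in WAT and 19.4, 13.3, 34.7 and 24.1 CPM in BAT. The groups overlapped through BAT replicate 3, and the log2 fold change was -0.83 ± 0.26 (SE, limma adjusted p = 0.013). Slc2a3 (GLUT3), a high-affinity transporter best known from neurons, was not called (9.95 ± 4.22 CPM in WAT and 12.9 ± 3.16 in BAT, SD, n = 4 each). Slc2a4 accordingly made up 42.0% ± 8.27 (SD, n = 4) of the RPKM summed over these transporters in WAT and 93.5% ± 1.55 in BAT.

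Hexokinases trap glucose in the cell as glucose-6-phosphate, and here the isoforms changed places. Hk2, the insulin-regulated form of muscle and fat (chromosome 6, 82675021 to 82724448, minus strand, mm9), measured 50.02, 54.4, 67.9 and 47.6 CPM in WAT and 501, 591, 810 and 1066 CPM in BAT. There was no overlap, and the log2 fold change was 3.69 ± 0.22 (SE, limma adjusted p = 3.9e-08). Hk3, the form found mainly in myeloid cells, measured 137, 134, 167 and 215 CPM in the WAT libraries. BAT held 17.6, 4.97, 4.34 and 5.36 CPM of Hk3, with replicate 1 apart from the rest. These BAT values rest on 40, 9, 4 and 8 reads. All WAT libraries were above all BAT libraries, by -4.46 ± 0.36 on the log2 scale of BAT over WAT (limma adjusted p = 8.0e-07). The 15 macrophage markers were likewise all lower in BAT, their summed level lying at 15248 to 21304 CPM in WAT and at 1791 CPM in BAT replicate 1 against 710 to 806 CPM in the other BAT libraries; none of these markers was at 0 in any tissue library, and their part in the Hk3 difference was not tested. In such bulk samples fewer cells of a type and less RNA per cell cannot be told apart. Hk1, the housekeeping form, was not called (79.9 ± 4.61 CPM in WAT, 93.0 ± 6.08 in BAT). In shares of hexokinase RPKM, WAT held 64.6% ± 4.74 Hk3 and 12.04% ± 2.44 Hk2, and BAT 1.96% ± 1.92 Hk3 and 82.9% ± 4.74 Hk2.

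**Figure D2:**
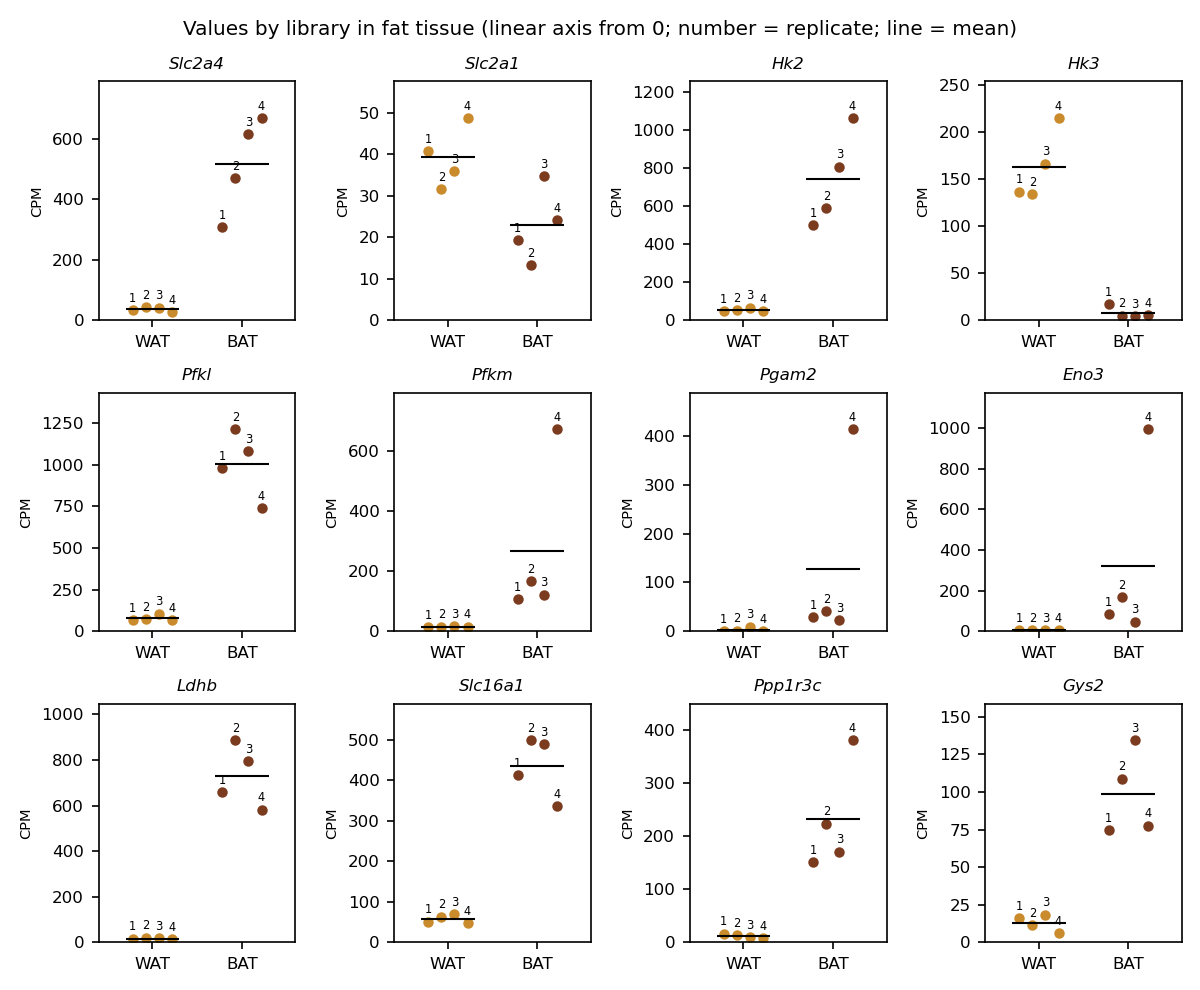
CPM in each of the 4 WAT and 4 BAT libraries for 12 glucose genes, linear axes from 0; digits are replicate numbers and the line is the group mean. BAT replicate 4 stands far above the other BAT libraries for Pfkm, Pgam2 and Eno3, and not for Pfkl, Ldhb or Slc16a1.

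Phosphofructokinase sets the pace of glycolysis, and its 3 subunits were all higher in BAT. Pfkl, the liver-type subunit, measured 66.2, 74.6, 107 and 67.3 CPM in WAT and 980, 1215, 1081 and 740 CPM in BAT, without overlap (log2 fold change 3.67 ± 0.19, limma adjusted p = 1.7e-08). Pfkm, the muscle-type subunit, measured 14.8, 16.1, 18.001 and 15.4 CPM in WAT and 106, 168, 123 and 673 CPM in BAT. All BAT libraries were above WAT, with replicate 4 well above the others, and the log2 fold change was 3.57 ± 0.49 (limma adjusted p = 0.00012). Pfkp, the platelet-type subunit, rose least (log2 fold change 1.13 ± 0.14, limma adjusted p = 2.1e-05). WAT thus carried mainly Pfkp (50.6% ± 6.13 of subunit RPKM, SD, n = 4) and BAT mainly Pfkl (64.6% ± 15.8), with Pfkm at 10.4% to 49.3% of the total across BAT libraries.

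The Pfkfb enzymes make and break fructose-2,6-bisphosphate, the strongest activator of phosphofructokinase, and they did not move as a block. Pfkfb1, the form of liver and muscle, rose (log2 fold change 1.75 ± 0.31, limma adjusted p = 0.00033), with 25.6 to 79.0 CPM in BAT and 9.87 to 13.1 in WAT. Pfkfb4 fell: it measured 47.9, 62.9, 52.8 and 69.1 CPM in WAT and 10.1, 6.63, 6.51 and 10.7 CPM in BAT. The groups were far apart (log2 fold change -2.72 ± 0.21, limma adjusted p = 2.9e-07), though the BAT values rest on 23, 12, 6 and 16 reads. Pfkfb2, the cardiac form, was lower by a small margin (log2 fold change -0.41 ± 0.16, limma adjusted p = 0.042), a call lost in DESeq2 (adjusted p = 0.052), on centred RPKM (0.34) and without WAT replicate 2 (0.085) or 3 (0.084). Pfkfb3, the form with the strongest kinase activity and the most abundant of these enzymes by RPKM in both depots (73.3% ± 7.25 of their sum in WAT, 74.7% ± 9.36 in BAT), was not called (375 ± 128 CPM in WAT, 406 ± 113 in BAT).

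Most of the other glycolytic enzymes rose as well. Aldoa, the main aldolase, had the highest RPKM of all members in both depots (805 ± 77.3 in WAT, 1283 ± 350 in BAT) and rose by 2.15 ± 0.19 on the log2 scale (limma adjusted p = 1.3e-06). Log2 fold changes were 1.52 for Gpi1, which makes fructose-6-phosphate ahead of phosphofructokinase, 0.80 for Tpi1 (triosephosphate isomerase), 1.12 for Gapdh, 1.69 for Pgk1 (phosphoglycerate kinase), 1.35 for Pgam1 (phosphoglycerate mutase), 2.08 for Eno1 (enolase) and 1.49 for Pkm (pyruvate kinase); the largest of their limma adjusted p-values was 0.0040, for Pgk1. On uncentred RPKM the log2 values of Gpi1, Pfkp, Tpi1, Gapdh, Pgam1, Pkm, Ugp2 and Taldo1 lay below 0, though above the -1.51 of the median gene, and none of these was called there. Several of these genes have near-identical copies elsewhere in the mouse genome, and how the authors' counting treated reads that fit several places is not given in the sources used here, so their levels are uncertain to that extent. Pgk1 was uneven within BAT (292, 389, 111 and 116 CPM, against 42.3 to 80.7 in WAT). Gapdh, often used as a reference gene, held 405, 396, 442 and 449 CPM in WAT and 730, 1002, 953 and 1028 CPM in BAT. No BAT library overlapped WAT for Gapdh on this scale, whereas on uncentred RPKM its log2 fold change was -0.41 (limma adjusted p = 0.25). Aldoc, the brain-type aldolase, was scarce (0.12% ± 0.017 of aldolase RPKM in WAT) and not called. Eno2, the neuronal enolase, fell from 15.5, 14.5, 11.1 and 17.5 CPM in WAT to 2.64, 0.553, 4.34 and 5.36 CPM in BAT (log2 fold change -2.27 ± 0.46, limma adjusted p = 0.00094), with no overlap. Its BAT values rest on 6, 1, 4 and 8 reads, and Eno2 passed the count filter only through WAT, where it is high.

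A muscle form exists for several of these steps, and these forms were high in BAT and highest in a single library. Pgam2, the muscle phosphoglycerate mutase, measured 0.752, 1.68, 10.0 and 0.996 CPM in WAT and 29.1, 41.4, 22.8 and 414 CPM in BAT. WAT replicate 3 and BAT replicate 4 stood apart from their groups, which did not overlap (log2 fold change 4.52 ± 0.95, limma adjusted p = 0.0021). Eno3, the muscle enolase (chromosome 11, 70470678 to 70476015, plus strand, mm9), measured 4.75, 5.99, 5.28 and 6.08 CPM in WAT and 85.9, 167, 47.8 and 996 CPM in BAT. Again no libraries overlapped and BAT replicate 4 was far ahead (log2 fold change 4.76 ± 0.76, limma adjusted p = 0.00036). In shares of family RPKM, Eno3 ran from 4.08% to 65.4% and Pgam2 from 30.9% to 94.3% across BAT libraries.

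BAT replicate 4 also carried far more of the skeletal muscle markers. The 16 markers, among them myosin heavy chains, Ckm and Acta1, were all higher in BAT; they summed to 43700 CPM in BAT replicate 4, 3227 to 6050 CPM in the other BAT libraries and 47.2 to 60.5 CPM in WAT, with Myh2, Myh4 and Tnnc2 each at 0 in 1 WAT library. Relative to the median of BAT replicates 1 to 3, replicate 4 held 13.0 times the summed muscle markers, 14.2 times the Pgam2, 11.6 times the Eno3, 6.06 times the Slc16a3, 5.49 times the Pfkm, 3.03 times the Pfkfb1, 2.24 times the Ppp1r3c, 1.80 times the Hk2 and 1.43 times the Slc2a4. It held less of Pgk1 (0.396 times), Pgam1 (0.423), Pygb (0.426), Gbe1 (0.428) and Eno1 (0.452), and 0.827 times the summed brown fat markers. Over all tested genes the median of this ratio was 1.013, and over the members 0.993. The ratio of Slc16a3 rests on few reads, with 26, 7, 1 and 35 in BAT replicates 1 to 4. BAT replicate 1 held 11.5 CPM of this gene and replicate 4 held 23.4 CPM. Replicate 4 was the highest BAT library for 14 of the 41 members, and for 28.8% of all tested genes. The fit without it left 28 members higher, Pfkm at 2.95 (limma adjusted p = 2.7e-07), Pgam2 at 3.56 (0.00061), Eno3 at 3.86 (4.6e-06), Pfkfb1 at 1.37 (0.00020) and Ppp1r3c at 3.86 (4.2e-07) on the log2 scale, while G6pdx was no longer called (adjusted p = 0.053). BAT replicates 1 to 3 also held more muscle marker transcript than any WAT library, and its part in the levels of these isoforms was not tested.

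Lactate dehydrogenase interconverts pyruvate and lactate, and the B subunit showed the largest rise of the members in the limma fit, while edgeR and DESeq2 put Eno3 higher (log2 fold changes of 5.88 and 5.85, against 5.42 for Ldhb in both). Ldhb (chromosome 6, 142438769 to 142456477, minus strand, mm9) measured 16.1, 21.1, 17.2 and 14.1 CPM in WAT and 660, 888, 795 and 583 CPM in BAT. The groups were far apart, with BAT replicate 4 the lowest of its group (log2 fold change 5.37 ± 0.17, limma adjusted p = 4.3e-10). Ldha, the A subunit, measured 505, 507, 696 and 565 CPM in WAT and 1990, 2571, 1665 and 1316 CPM in BAT, also without overlap but with a smaller log2 fold change of 1.70 ± 0.21 (limma adjusted p = 1.5e-05). Ldhb made up 3.84% ± 0.970 of lactate dehydrogenase RPKM in WAT and 34.1% ± 4.22 in BAT; in scaled counts, which are not divided by length, the BAT share was 28.4%. Slc16a1 (MCT1), a carrier of lactate, pyruvate and ketone bodies, measured 51.2, 63.3, 69.6 and 47.2 CPM in WAT and 412, 499, 488 and 337 CPM in BAT. No libraries overlapped (log2 fold change 2.90 ± 0.17, limma adjusted p = 3.8e-08). Slc16a3 (MCT4), the lactate exporter of glycolytic cells, was not called, ranging over 7.12 to 14.4 CPM across WAT libraries and over 1.09 to 23.4 CPM across BAT libraries, the highest value being that of BAT replicate 4.

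**Figure D3:**
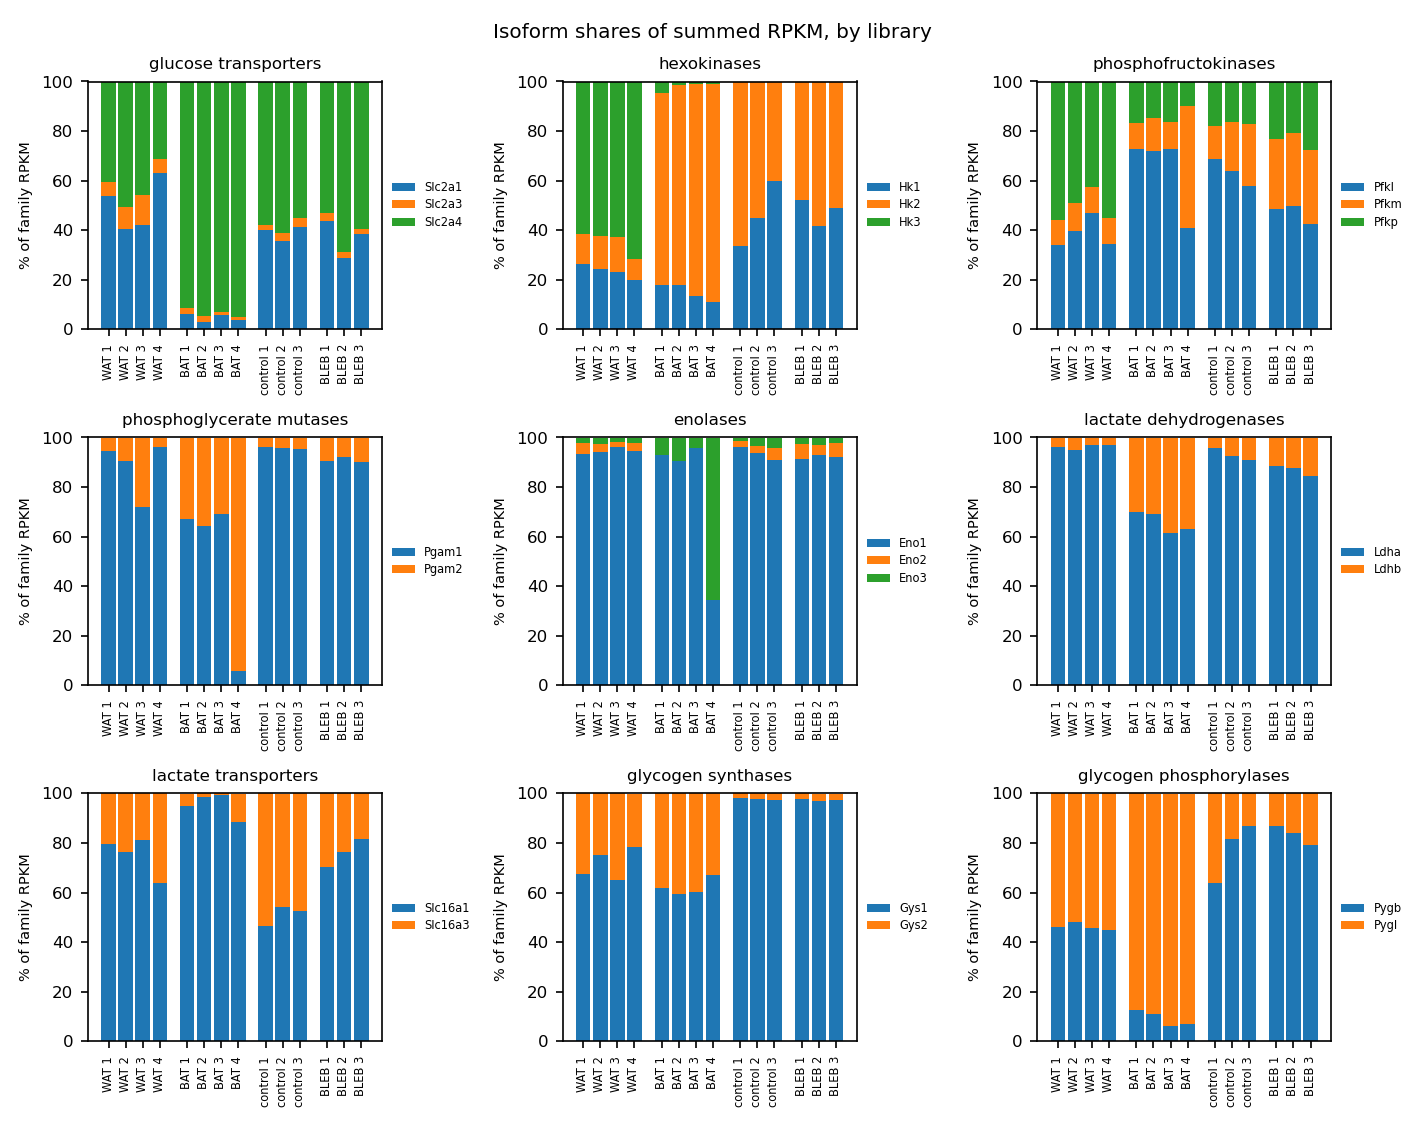
Share of each isoform in the RPKM summed over its family, in percent, for each of the 14 libraries and 9 families. Slc2a4 makes up 91.5% to 94.9% of the transporters in BAT, and BAT replicate 4 differs from the other BAT libraries in phosphofructokinases, phosphoglycerate mutases and enolases.

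Of the 8 glycogen genes 7 were higher in BAT, covering synthesis and breakdown alike, against 30.7% of all tested genes. Ppp1r3c, which brings protein phosphatase 1 to glycogen and so activates glycogen synthase, showed the largest change. It measured 16.7, 13.8, 10.0 and 7.78 CPM in WAT and 151, 223, 170 and 381 CPM in BAT, without overlap (log2 fold change 4.16 ± 0.29, limma adjusted p = 1.9e-07). Glycogen synthase adds glucose to the chain and has a muscle-type gene, Gys1, and a liver-type gene, Gys2. Gys2 measured 16.04, 11.2, 18.5 and 6.08 CPM in WAT and 74.5, 109, 135 and 77.7 CPM in BAT (log2 fold change 2.95 ± 0.31, limma adjusted p = 4.8e-06). Gys1 measured 46.2, 47.4, 47.9 and 30.8 CPM in WAT and 167, 223, 285 and 222 CPM in BAT (log2 fold change 2.36 ± 0.19, limma adjusted p = 4.5e-07). Neither synthase overlapped between the depots in level, while the share of Gys2 did, making up 28.4% ± 6.34 of synthase RPKM in WAT and 37.7% ± 3.44 in BAT. Gbe1, the branching enzyme, measured 38.9, 28.5, 36.9 and 37.4 CPM in WAT and 188, 264, 227 and 97.1 CPM in BAT (log2 fold change 2.35 ± 0.26, limma adjusted p = 7.3e-06), with BAT replicate 4 the lowest of its group but above WAT. Pygl, the liver-type phosphorylase that releases glucose from glycogen, measured 71.7, 77.0, 88.7 and 68.1 CPM in WAT and 406, 653, 552.5 and 322 CPM in BAT (log2 fold change 2.61 ± 0.20, limma adjusted p = 3.6e-07). Pygb, the brain-type phosphorylase, was not called (90.3 ± 12.2 CPM in WAT, 68.4 ± 33.3 in BAT), and Pygl rose from 53.6% ± 1.37 to 90.7% ± 3.05 of the RPKM of this pair. Ugp2, which makes UDP-glucose, and the gene listed as Pgm2, a phosphoglucomutase whose transcript carries the symbol Pgm1 in the RefSeq table used here, rose by 1.45 ± 0.15 and 2.00 ± 0.16 on the log2 scale (limma adjusted p = 4.0e-06 and 3.5e-07).

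In the pentose phosphate pathway the members moved unevenly. G6pdx, which makes NADPH at the entry step, was lower in BAT (384 ± 56.7 CPM in WAT, 260 ± 89.96 in BAT), with overlapping groups. Its log2 fold change was -0.61 ± 0.21 (limma adjusted p = 0.026), and it was not called on centred RPKM (0.052) or without WAT replicate 3 (0.056). Pgd, the next NADPH-producing step, was not called (449 ± 61.3 and 388 ± 66.3 CPM). The sugar-rearranging enzymes Tkt and Taldo1 rose by 2.26 ± 0.18 and 1.35 ± 0.21 on the log2 scale (limma adjusted p = 3.6e-07 and 0.00012). Tkt ranged over 372 to 423 CPM across WAT and over 1457 to 2558 CPM across BAT.

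The other genes of these routes moved in mixed directions, and their counts are to be read against the 30.7% higher and 31.6% lower among all tested genes, which several of them lie near. Among 10 tested glucose transport genes 3 were higher and 3 lower; among those called, the largest log2 fold changes were 2.69 for Slc2a5, a fructose transporter, and 1.49 for Slc2a12, against -1.30 for Slc2a9, a urate transporter, and -1.24 for Tbc1d1, a brake on GLUT4 vesicles. Of 5 tested genes for other lactate and pyruvate transport 3 rose, namely Mpc1 (2.55) and Mpc2 (3.63), the mitochondrial pyruvate carrier, and Bsg (2.75), the chaperone of MCT1, while 2 fell, Emb (-2.30), a related chaperone, among them. Of 19 tested glycogen genes 10 rose and 4 fell. Pygm, the muscle phosphorylase, led them with 1.30 to 3.65 CPM across WAT libraries and 72.7, 133, 83.6 and 999 CPM in BAT, the last again being replicate 4, and Ppp1r3b (3.96), Ppp1r3a (3.501), both targeting subunits, and Phkg1 (1.98), a phosphorylase kinase subunit, followed on the log2 scale. Replicate 4 was also far above the other BAT libraries for Ppp1r3a (69.0 CPM against 4.41 to 16.6) and Phkg1 (54.9 CPM against 5.43 to 13.3), and not for Ppp1r3b. Of 6 further tested glycolytic genes 3 rose, with Fbp2, a fructose-bisphosphatase that runs against glycolysis, at 4.08, and 1 fell, Minpp1 (-1.28). In the pentose phosphate group 4 of 8 rose and 2 fell, Prps1 (-2.01) and Prps2 (-1.80), which spend ribose-5-phosphate on nucleotide synthesis. Of 16 tested regulators 7 rose and 4 fell: Ppargc1a (4.34), Mlxipl (4.06), the glucose-sensing factor ChREBP, Esrrg (3.33) and Esrra (2.81) rose most. Of 13 tested targets of hypoxia-inducible factor outside glucose metabolism 8 rose and 2 fell, with Egln1 at 3.26 and Car9 at -2.43. All changes named here had limma adjusted p-values of at most 0.023.

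In the cell line, no member was called after 24 h of blebbistatin by limma (lowest adjusted p = 0.095, Slc16a3), and edgeR's quasi-likelihood test also called none of 40. Over all 12808 tested genes limma called 0.867%, 0.133% higher and 0.734% lower. Hk3 was not tested, with a single read in all 6 libraries. At an unadjusted p under 0.05, 11 members were lower and 0 higher, against 7.24% and 5.21% of all tested genes. DESeq2 called 8 members lower, against 2.8% of the 12808 tested genes. The authors' deposited table covers 24421 genes, including those not tested here, and 1.44% of them are lower there, a share on a wider base. It lists the same 8 members as lower (authors' adjusted p of 1.7e-05 to 0.019). These were Pfkl, Tpi1, Gapdh, Pgk1, Pgam1, Eno1, Ldha and Slc16a3, which lie from phosphofructokinase to lactate export but do not cover every step between. Aldoa was not among them. It measured 2639, 1442 and 1036 CPM in control and 1045, 1074 and 1385 CPM in BLEB cells, with overlap (log2 difference -0.45, limma adjusted p = 0.64). Pkm was not among them either (authors' adjusted p = 0.054). For 11 members every BLEB library lay below every control library, as it did for 9.99% of all tested genes; only Pfkfb2 had every BLEB library above, as did 9.62% of genes. The limma median of the 40 members was -0.24 and that of all genes 0.01 on the log2 scale.

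**Figure D4:**
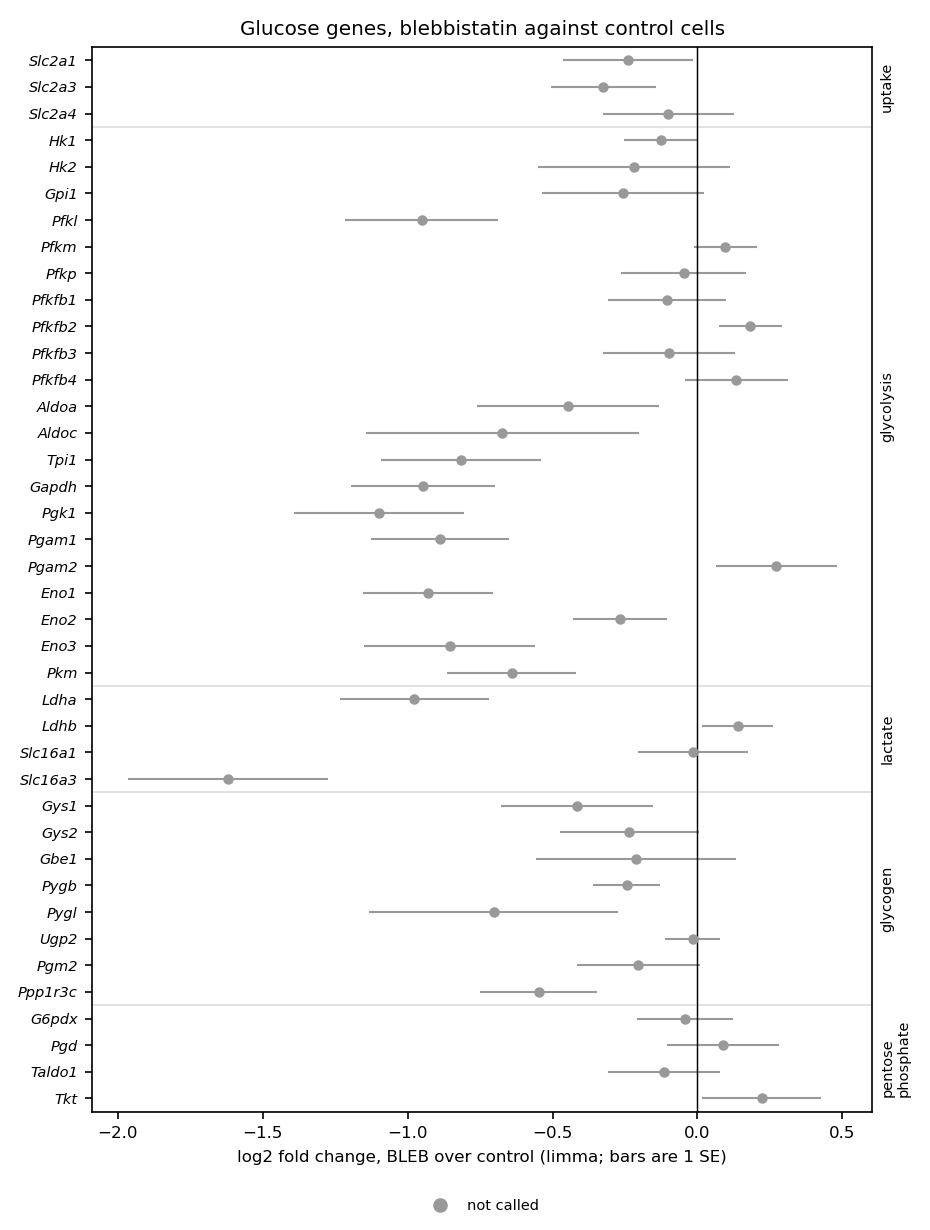
Log2 fold change of each tested glucose gene, BLEB over control cells, with 1 SE (limma, n = 3 libraries a group). All points are grey because none was called; Slc16a3 lies lowest at -1.62 and Pgam2 highest at 0.27.

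Among these genes Slc16a3 had the lowest ratio, with 120, 61.9 and 54.3 CPM in control and 34.3, 24.6 and 15.7 CPM in BLEB cells (log2 difference -1.62 ± 0.35, SE, n = 3 a group; DESeq2 adjusted p = 0.00015). Ldha measured 1447, 962 and 703 CPM in control and 538, 580 and 411 CPM in BLEB cells (-0.98 ± 0.26; DESeq2 adjusted p = 0.0036). Pgk1 measured 283, 232 and 171 CPM in control and 133, 131 and 65.0 CPM in BLEB cells (-1.10 ± 0.29, DESeq2 adjusted p = 0.0083). In all of them the groups were apart, and control replicate 1 was the highest and replicate 3 the lowest control. Gapdh measured 754, 444 and 350 CPM in control and 252, 253 and 257 CPM in BLEB cells (-0.95 ± 0.25; DESeq2 adjusted p = 0.0036); the BLEB libraries were nearly equal, and the spread lay in the controls. The labels' protocol expresses the Ucp1 level of differentiated cells relative to this gene. Eno1 measured 757, 522 and 412 CPM against 294, 332 and 241 CPM (-0.93 ± 0.22, DESeq2 adjusted p = 0.0021). Pfkl measured 488, 310 and 236 CPM against 198, 185 and 134 CPM (-0.95 ± 0.26; DESeq2 adjusted p = 0.0080). The same order held for Tpi1 (941, 497 and 410 against 310, 314 and 361 CPM) and Pgam1 (168, 129 and 100.6 against 78.9, 85.5 and 50.6 CPM), without overlap. Pkm (-0.64 ± 0.22), Pygb (-0.24 ± 0.12) and Ppp1r3c (-0.55 ± 0.20) also had no overlap, and none of them passed any tool's threshold.

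**Figure D5:**
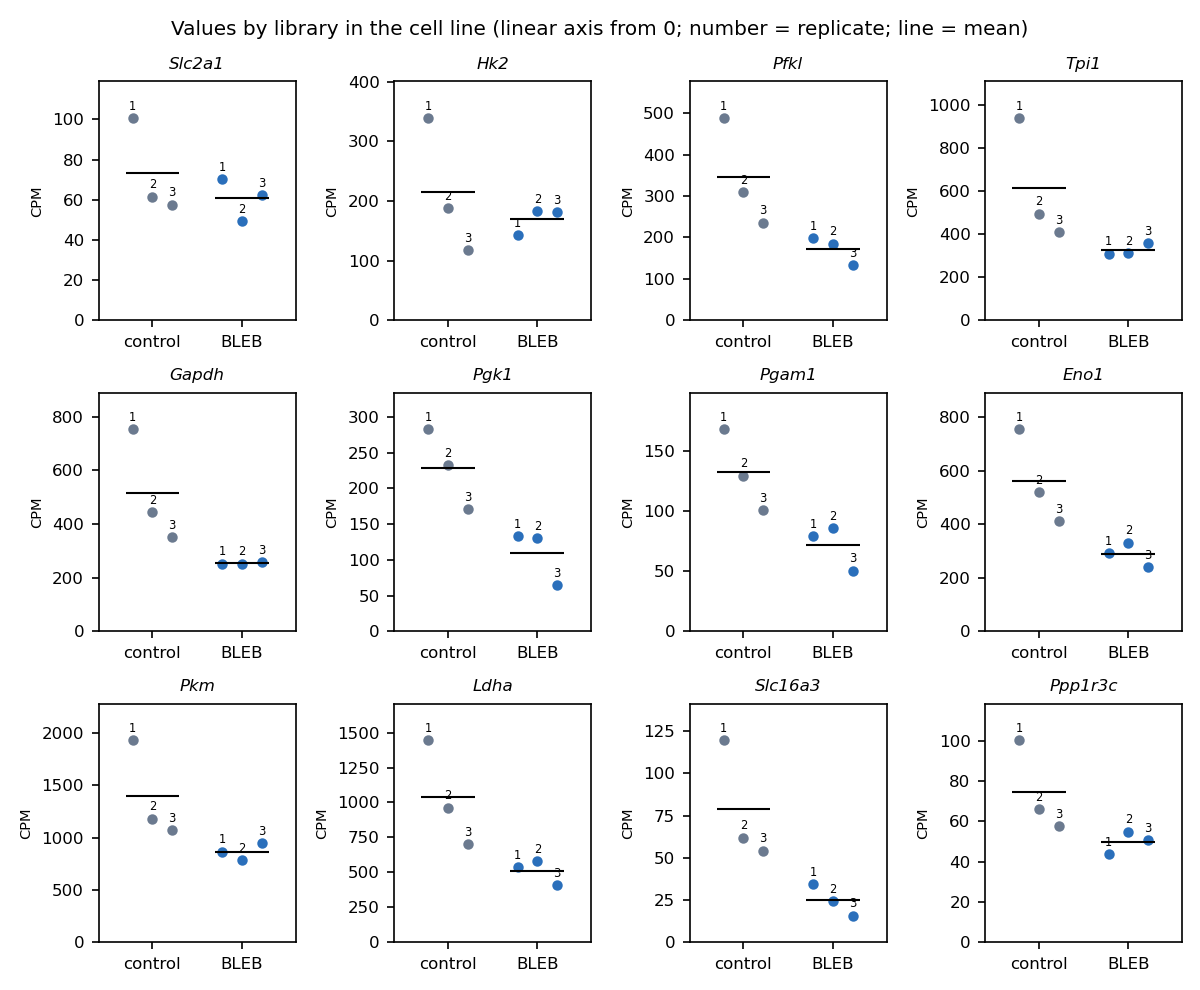
CPM in each of the 3 control and 3 BLEB libraries for 12 glucose genes, linear axes from 0; digits are replicate numbers and the line is the group mean. Control replicate 1 is the highest library in all 12 panels, and for Slc2a1 the other controls lie within the range of the BLEB libraries, 49.5 to 70.1 CPM.

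The transporters, Hk2 and several isoforms showed no such separation. Slc2a1 measured 100.7, 61.5 and 57.6 CPM in control and 70.1, 49.5 and 62.3 CPM in BLEB cells. Slc2a4 measured 160, 116 and 84.2 against 93.0, 129 and 106 CPM, and Hk2 measured 339, 188 and 118 against 143, 183 and 182 CPM. All of these overlapped and were not called by any tool. Pfkm (72.7, 73.4 and 78.1 against 87.2, 82.3 and 70.9 CPM) and Ldhb (46.8, 59.5 and 53.7 against 54.9, 63.8 and 57.0 CPM) also overlapped. Pgam2 (3.21, 2.71 and 2.45 against 4.11, 3.59 and 2.78 CPM) and Eno3 (9.26, 15.6 and 16.5 against 7.92, 9.56 and 4.82 CPM) were low. The 16 skeletal muscle markers summed to 42.1, 16.7 and 13.2 CPM in control and 7.84 to 9.91 CPM in BLEB cells, without overlap. Of them 4 were tested and none was called, while 12 were too low to test. Their log2 differences were -1.95 for Mb, -0.51 for both Actn3 and Atp2a1, and 0.28 for Ttn. Mb made up most of the sum in control replicates 1 and 2. It measured 34.7, 8.69 and 3.48 CPM in control and 1.63, 3.21 and 2.31 CPM in BLEB cells. Ckm, Myh2 and Tnni2 were at 0 in every cell library. The pentose phosphate genes were not called, with log2 differences of -0.11 to 0.22. As a share of the pair, Slc16a3 was 48.9% ± 4.13 of lactate transporter RPKM in control and 23.8% ± 5.59 in BLEB cells (SD, n = 3), Ldhb 6.76% ± 2.45 and 13.2% ± 2.18 of lactate dehydrogenase, and Pfkl 63.3% ± 5.44 and 47.0% ± 3.83 of phosphofructokinase; these groups did not overlap.

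The control libraries differed more among themselves for these genes than for most. The highest control was 1.74 times the lowest at the median member and 1.24 times at the median gene, while among BLEB libraries the ratios were 1.32 and 1.29. Control replicate 1 was the highest control for 31 of 40 members (77.5%) and for 40.5% of all tested genes. It held 3.70 times the mean of the other controls for Aldoc, 3.00 times for Pygl, 2.35 times for Gbe1 and 2.22 times for Hk2, none of which was called. Without it the differences were smaller but of the same sign for the 8 genes, from -1.27 for Slc16a3 to -0.46 for Tpi1, with limma adjusted p from 0.052 (Gapdh) to 0.20 (Pgk1), and the median of the members was -0.02. The 14 targets of hypoxia-inducible factor outside glucose metabolism summed to 2270 CPM in control replicate 1, 1361 and 1148 CPM in the other controls and 1153 to 1167 CPM in BLEB cells, so that the groups overlapped. The median log2 difference of the 13 tested was -0.66. Only Vegfa lay above 0 (0.17, with 514, 303 and 254 CPM in control and 363 to 413 CPM in BLEB cells). Adm alone was called (log2 fold change -2.14, limma adjusted p = 0.0074). Among the controls Adm was lowest in replicate 1 (37.2, 60.3 and 66.3 CPM, against 10.6 to 13.3 in BLEB cells). Ankrd37 (-1.74), Ndrg1 (-1.02), P4ha2 (-0.70) and P4ha1 (-0.62) were not called. Like Adm, they had every BLEB library below every control library, as had 9.99% of all tested genes. Brown fat markers summed to 385 CPM in control replicate 1, 185 to 262 CPM in the other controls and 210 to 276 CPM in BLEB cells. Fibroblast and preadipocyte markers summed to 7214, 11053 and 12054 CPM in control and 5909 to 6544 CPM in BLEB cells, and white fat markers to 493 to 519 and 389 to 468 CPM, both without overlap. The part of these features in the glucose gene differences was not tested. Among the other glucose lists no gene was called in the cells; among the 16 tested regulators the limma log2 differences were 0.92 for Epas1 and 0.94 for Ppargc1a (adjusted p = 0.13 and 0.25).

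Promoters of the genes that DESeq2 called lower are shown for the letters ACGTG and CACGTG. The first is one core sequence that hypoxia-inducible factors bind, and the second is the E-box bound by Myc, USF and ChREBP. Other forms of the core were not searched for. The windows run from 250 bases before to 50 after the RefSeq start (GRCm38.p6); capitals mark ACGTG on either strand, including those inside CACGTG, and positions below count from the start. These 4, with the lowest log2 differences among the 5 of 8 that hold the motif, were chosen after their values were seen.

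Slc16a3, chr11:120948817-120949116, plus strand: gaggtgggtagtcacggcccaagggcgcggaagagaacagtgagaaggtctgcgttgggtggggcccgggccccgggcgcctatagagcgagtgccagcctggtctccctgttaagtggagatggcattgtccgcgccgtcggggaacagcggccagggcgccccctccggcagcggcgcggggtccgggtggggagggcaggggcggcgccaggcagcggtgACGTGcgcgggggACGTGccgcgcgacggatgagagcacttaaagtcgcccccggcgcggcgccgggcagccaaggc
Pgk1, chrX:106186850-106187149, plus strand: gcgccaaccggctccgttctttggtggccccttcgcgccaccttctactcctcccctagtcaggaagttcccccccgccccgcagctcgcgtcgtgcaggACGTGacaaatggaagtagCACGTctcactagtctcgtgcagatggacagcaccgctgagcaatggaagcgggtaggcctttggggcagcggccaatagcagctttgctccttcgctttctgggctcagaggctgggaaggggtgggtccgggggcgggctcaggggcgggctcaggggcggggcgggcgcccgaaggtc
Ldha, chr7:46845554-46845853, plus strand: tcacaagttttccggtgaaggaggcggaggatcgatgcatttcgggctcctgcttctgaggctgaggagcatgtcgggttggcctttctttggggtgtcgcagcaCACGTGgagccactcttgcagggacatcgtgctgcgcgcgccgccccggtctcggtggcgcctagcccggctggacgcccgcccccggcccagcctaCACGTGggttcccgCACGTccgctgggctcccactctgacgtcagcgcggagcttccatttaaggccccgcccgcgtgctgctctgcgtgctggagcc
Gapdh, chr6:125165724-125166023, minus strand: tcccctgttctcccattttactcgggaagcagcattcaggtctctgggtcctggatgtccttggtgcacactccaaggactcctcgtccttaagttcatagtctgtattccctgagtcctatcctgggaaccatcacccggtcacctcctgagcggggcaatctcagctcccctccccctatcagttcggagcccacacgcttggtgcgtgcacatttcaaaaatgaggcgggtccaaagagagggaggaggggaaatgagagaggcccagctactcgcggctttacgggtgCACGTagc

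Slc16a3 holds ACGTG at -27 and -14, Pgk1 at -150 and, on the other strand, at -131, and Gapdh on the other strand at 43. Ldha holds CACGTG 2 times, at -145 and -48, and a further reversed ACGTG at -34. Pgam1 also holds ACGTG, and Pfkl, Tpi1 and Eno1 do not hold it in these windows, which leaves other forms of the core unexamined. Of 38 members with a window, 22 hold ACGTG in at least 1 of their windows (57.9%), as do 21.8% of the 27025 genes of the table, so its presence is shared with members that were not lower in the cells. Over all windows of this length 19.6% hold ACGTG and 7.15% hold CACGTG. These matches describe letters and show no binding.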

How the data were processed

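RNA-seq libraries of 8 fat tissue and 6 cell line samples were used. Per the submitters' processing notes, reads were handled with STAR, HOMER and edgeR on build mm9; version numbers: not given in the sources used here. Exon reads were counted by HOMER into 1 transcript row per gene, per the file headers, which name no strand option, so overlapping antisense reads cannot be told apart. The authors deposited gene signal, that is read counts scaled by 1 factor per library. From the deposited signal whole reads were recovered (100% of values of up to 1000 reads within 0.1 of a whole read). The authors deposited RPKM in separate tables; for 10 of 41 members these name another transcript than the count tables. The authors' deposited table also gives log2 fold changes and adjusted p-values.

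CPM was computed as the scaled count over the library's gene total times its TMM factor. Genes passing filterByExpr (minimum count 10, minimum total 15) were fitted with limma (trend, robust) on log2(CPM + 0.5), which understates changes of low genes, with group as the only term and each experiment apart. edgeR's quasi-likelihood test and DESeq2 ran on the recovered reads. RPKM alternatives used log2(RPKM + 0.1). The fits were tested on simulated data. Samples were treated as unpaired. Deviations of same-numbered libraries correlated at -0.037 to 0.074 in tissue and at -0.49, 0.318 and -0.258 in cells. With so few libraries these values cannot tell whether the samples were paired. Every member is accounted for; values per library are given for called members changed by 1 or more on the log2 scale (up to 16, by size) and 8 chosen genes. In the cells that rule names only the 8 chosen genes, and further genes there were named after their values were seen. The members, gene lists and tests were chosen with earlier results of these data known. Isoform shares and the comparison of BAT replicate 4 carry no test. Promoters were matched by RefSeq accession; for Slc2a3, Slc2a4 and Gys2 none is printed. Software was DESeq2 1.42.0, edgeR 4.0.16, limma 3.58.1 and R 4.3.3.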

Additional observations from a re-analysis of the deposited data

Results flagged for a closer look

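Of 82 groups of 4 tissue libraries examined (41 genes, each in WAT and BAT), 7 held a library far from the other 3 by Dixon's ratio; chance flags about 1 in 20 groups. BAT replicate 4 stood high for Pfkm (673 CPM, the others 106 to 168), Pgam2 (414 CPM, the others 22.8 to 41.4) and Eno3 (996 CPM, the others 47.8 to 167), the library whose skeletal muscle markers summed to 43700 CPM. BAT replicate 1 stood high for Hk3 (17.6 CPM, the others 4.34 to 5.36) and had the highest macrophage marker sum of the BAT libraries, 1791 CPM. WAT replicate 3 stood high for Pgam2 (10.02 CPM, the others 0.752 to 1.68). Its skeletal muscle markers summed to 54.0 CPM, within the 47.2 to 60.5 CPM of the WAT libraries. The same library held 25.0 CPM of Ldhc, 16.6 of Gapdhs and 8.93 of Pgk2, further glycolytic genes. The other WAT libraries held at most 0.299, 1.49 and 0 CPM of these. Any link of these genes to the Pgam2 value was not tested. WAT replicate 4 was low for Gys1 (30.8 CPM, the others 46.2 to 47.9), and WAT replicate 2 was low for Pgd (358 CPM, the others 472 to 492).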

How the results depend on the processing

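In tissue, 20 alternatives gave 815 values for single members, of which 771 kept their direction and side of the threshold; DESeq2 gave no adjusted p for Pgam2. Uncentred RPKM changed the most, calling 13 members higher and 12 lower, with reversed log2 values for Slc2a3 (-1.02), Hk1 (-1.27), Gpi1 (-0.016), Pfkp (-0.40), Pfkfb3 (-1.37), Tpi1 (-0.73), Gapdh (-0.41), Pgam1 (-0.17), Pkm (-0.042), Ugp2 (-0.046) and Taldo1 (-0.18). A threshold of 0.01 left 3 members lower. The uncalled Pfkfb3 reversed without the filter (-0.086) and without TMM (-0.083), and ranged from -0.078 to 0.29 with single libraries left out; the uncalled Slc16a3 reversed in edgeR (0.049) and ranged from -1.27 to 0.019. With any 1 tissue library left out, 28 members stayed higher and 4 to 7 were lower; without a WAT library 40 members were tested. With a replicate block, which treats same-numbered samples as paired, 28 members were higher and 5 lower in tissue. Pfkfb2 was no longer called there (limma adjusted p = 0.084).

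In the cells, DESeq2 called 8 members lower and the replicate block 1 (Slc16a3, limma adjusted p = 0.040). All genes called numbered 30 on RPKM, 73 without TMM, 497 in DESeq2, 30 with the replicate block and 22 at 0.01, and from 13 (without control replicate 2) to 321 (without control replicate 1) with 1 library left out. Reversals concerned uncalled members: without TMM Pfkp (0.015), Slc16a1 (0.048), Ugp2 (0.046) and G6pdx (0.020), and on RPKM Slc16a1 (0.021) and Ugp2 (0.020). Leaving out single libraries, log2 differences ranged from -0.39 to 0.012 for Slc2a1, -0.33 to 0.13 for Slc2a4, -0.58 to 0.18 for Hk2, -0.50 to 0.082 for Gpi1, -0.22 to 0.21 for Pfkp, -0.31 to 0.076 for Pfkfb1, -0.30 to 0.14 for Pfkfb3, -0.19 to 0.20 for Slc16a1, -0.53 to 0.20 for Gbe1, -0.058 to 0.022 for Ugp2, -0.41 to 0.049 for Pgm2, -0.21 to 0.093 for G6pdx, -0.096 to 0.29 for Pgd and -0.28 to 0.023 for Taldo1. The causes were not tested. An alternative scaling by TMM on tested totals was chosen after seeing the data. BAT libraries hold the fewest reads, so low members such as Aldoc, Eno2, Slc16a3, Hk3 and Pfkfb4 are the least certain there.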
